A study of Mus musculus with 8 samples.

Results

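Transcripts of 8 Krüppel-like factor (KLF) genes, *Klf2*, *Klf3*, *Klf6*, *Klf7*, *Klf10*, *Klf11*, *Klf13* and *Klf16*, were compared between induced regulatory T cells (iT_regs_) of control mice and of mice whose *Foxp3*-driven Cre deletes *Tdrd3*. The question was whether the loss of *Klf2* RNA was limited to *Klf2* within its family. Members were taken by gene symbol from the table of gene counts, and all 8 of the 8 symbols were found among its 11911 genes. The table lists 13 genes named Klf. The other 5, *Klf4*, *Klf5*, *Klf8*, *Klf9* and *Klf12*, are described beside the members.

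KLFs bind GC boxes and CACCC motifs through zinc fingers near the C terminus, which they share with the SP factors, while their differing N-terminal parts recruit coactivators or the corepressors CtBP and SIN3. In T cells KLF2 maintains quiescence and drives genes of homing and egress such as *S1pr1*; FOXO1 activates its gene, and stimulation of the T cell receptor lowers it. KLF10 and KLF11 are encoded by genes that TGF-β, the cytokine that induces iT_regs_, switches on early.

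Naïve CD4+ T cells of mouse spleen were cultured for 36 hours with TGF-β, hamster antibodies to CD3 and CD28, and antibodies against IL-4 and IFN-γ, the same for both genotypes. There were 4 libraries of *Foxp3 YFP-Cre* cells, the controls, and 4 of *Tdrd3 fl/fl/Foxp3 YFP-Cre* cells, made from total RNA after removal of ribosomal RNA. Both genotypes carry the Cre at the *Foxp3* locus and differ in the floxed *Tdrd3* alleles. Because this Cre is made only after *Foxp3* is switched on, and no sort for YFP before RNA isolation is named, cells that had not recombined *Tdrd3* can be part of the harvested RNA. The Methods state that replicates came from independent mice but give 3 per group where the labels give 4, and the age of these mice is not given in the sources used here.

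Values are normalized CPM, counts of a gene scaled to a common library total of the tested genes with TMM factors. Total counts of the libraries ranged from 13258277 to 16001720 and did not differ beyond their spread between genotypes (two-sided exact permutation test, p = 0.743). At this depth 3 counts correspond to 0.188 to 0.225 CPM, and such limits cover counting error only. Genotypes were compared gene by gene with edgeR's quasi-likelihood test over 11317 genes that passed a filter on low counts. Both its unadjusted P and its p after Benjamini-Hochberg adjustment across these genes are given, with 0.05 as the threshold, and intervals are 95% intervals of the log2 fold change. An adjusted p without a named tool is that of edgeR. The single values of a gene were also compared with a two-sided exact permutation test, for which 0.0286 is the smallest p that 4 libraries against 4 allow. All 8 members passed the filter.

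The libraries of the genotypes overlapped in the targeted gene itself. By label, *Tdrd3* had 18.8, 15.1, 9.95 and 17.7 CPM in control replicates 1 to 4 and 13.7, 10.7, 12.9 and 11.1 CPM in knockout replicates 1 to 4, where knockout stands for *Tdrd3 fl/fl/Foxp3 YFP-Cre*. The library labelled *Foxp3 YFP-Cre* replicate 3 thus lay below all 4 knockout libraries, against its label, and the counts are totals per gene that do not show the floxed exons. The log2 fold change of *Tdrd3* was −0.35, its unadjusted P 0.0370 and its edgeR adjusted p 0.496, and unadjusted P was 0.166, 0.0502, 0.110, 0.0926 and 0.0850 when control replicate 1, 2 or 4 or knockout replicate 2 or 4 was left out. Without the library labelled *Foxp3 YFP-Cre* replicate 3 the Tdrd3 log2 fold change was −0.51 (unadjusted P 4.84e-04, edgeR adjusted p 0.115). That library is singled out here by its low *Tdrd3*, so leaving it out widens the difference, and this P cannot serve as a test of *Tdrd3*. With all libraries the exact permutation test gave p = 0.229 for *Tdrd3*. *Foxp3* had 117, 122, 107 and 93.8 CPM in controls and 77.2, 105, 93.2 and 78.1 CPM in knockout libraries, and is uncertain because its GENCODE exons share bases with those of *Flicr*, *Ccdc22* and *Ppp1r3f*. On the first principal component of the 500 most variable genes, which held 25.9% of the variance, knockout replicates 1 and 4 scored 12.0 and 12.6, apart from knockout replicate 3 at 3.17 and from the other 5 libraries, which scored between −8.64 and −1.18. When the libraries were clustered on the same 500 genes and cut into 2 branches, knockout replicates 1, 3 and 4 shared 1 branch and knockout replicate 2 fell with the 4 controls. Log2 fold changes of the members are therefore also given without knockout replicates 1 and 4, an alternative chosen after seeing the data. They are given without the library labelled *Foxp3 YFP-Cre* replicate 3 where it bears on them.

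*Klf2* was the member with the lowest log2 fold change. *Klf2* (ENSMUSG00000055148, GRCm39 chr8:73072877-73075500, plus strand) had 51.2, 58.9, 63.0 and 54.6 CPM in the control libraries 1 to 4, and 22.2, 45.3, 44.3 and 24.4 CPM in the knockout libraries 1 to 4. The genotypes did not overlap, and knockout replicates 1 and 4, the libraries that stand apart, were far below knockout replicates 2 and 3. The mean was 56.9 ± 5.13 CPM (SD, n = 4) in controls and 34.0 ± 12.4 CPM (SD, n = 4) in knockout cells. This is a log2 fold change of −0.74 with an interval from −1.07 to −0.40, a change of −40.1%, with unadjusted P at 1.96e-04 and the Benjamini-Hochberg adjusted p of edgeR's quasi-likelihood test at 0.0617. By log2 fold change 45 tested genes, or 0.398%, were lower than *Klf2*. In bulk RNA, fewer cells that express a gene and less of its RNA per cell cannot be told apart.

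The size of the *Klf2* difference depended on which knockout libraries were included, and its direction did not. Without knockout replicates 1 and 4 the log2 fold change of *Klf2* was −0.35 (unadjusted P 9.76e-04, edgeR adjusted p 0.661) in a comparison that kept 2 knockout libraries. Leaving out single libraries moved the adjusted p of edgeR in both directions. It was 0.00345 without knockout replicate 2, 0.0389 without knockout replicate 3 and 0.0426 without control replicate 4. It rose to 0.139 without control replicate 1, 0.139 without control replicate 2 and 0.123 without control replicate 3. Without knockout replicate 1 it was 0.236, and without knockout replicate 4 it was 0.276. Without the library labelled *Foxp3 YFP-Cre* replicate 3, which had the highest *Klf2*, the log2 fold change was −0.69. In all 32 alternatives *Klf2* was lower in knockout cells, with log2 fold changes between −0.96 and −0.35 and unadjusted P under 0.05. The adjusted p of edgeR, DESeq2 or limma lay between 8.80e-04 and 0.661 and was under 0.05 in 10 of them.

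**Figure D1:**
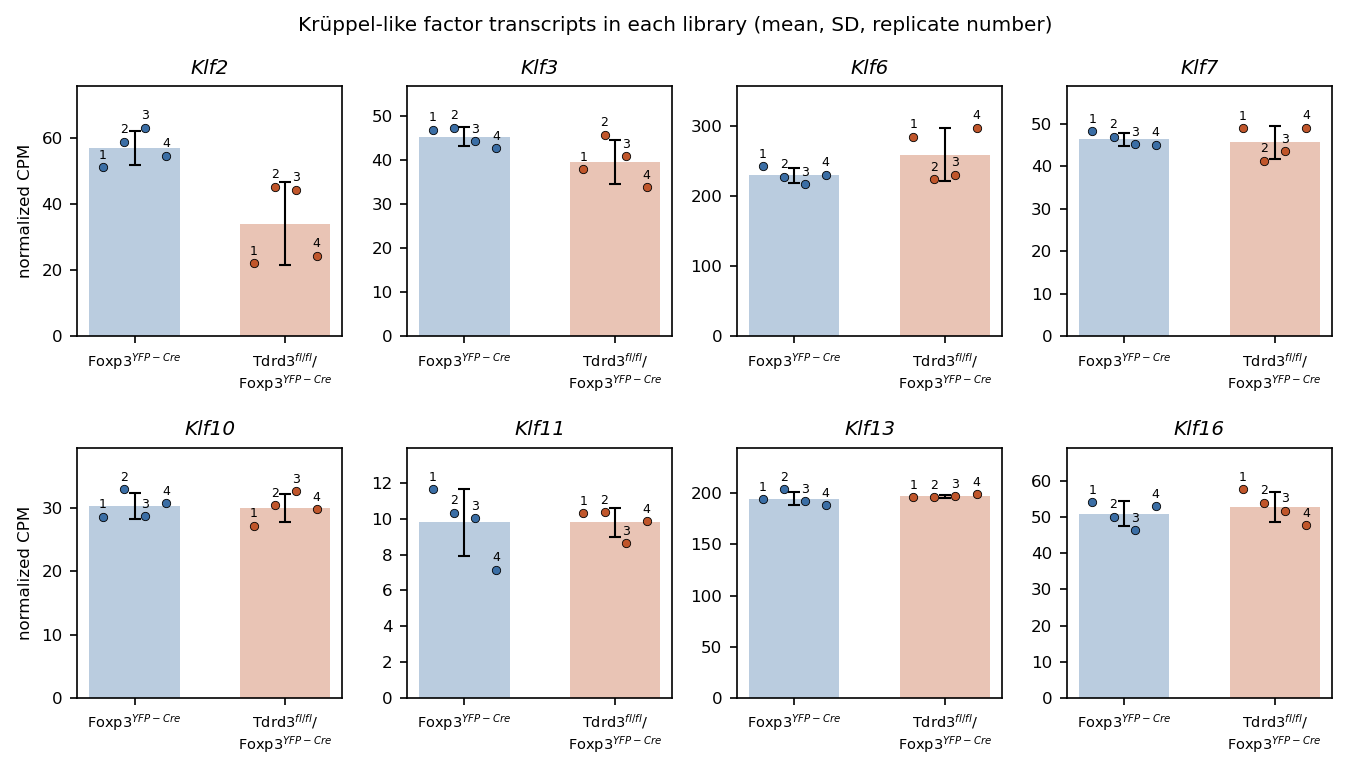
Normalized CPM of the 8 KLF members, 1 panel per gene with its own axis from 0, in control (blue) and *Tdrd3 fl/fl/Foxp3 YFP-Cre* (orange) iT_regs_. Points are libraries with their replicate number, bars are means and error bars are SD (n = 4 libraries); in *Klf2* the knockout libraries lie between 22.2 and 45.3 CPM, below the lowest control at 51.2, and in the other 7 panels the genotypes overlap.

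*Klf6* and *Klf7* encode the closest pair of relatives in the family, activators related to KLF2 whose genes are switched on in many stimulated cells. *Klf6* (ENSMUSG00000000078, chr13:5911481-5920393, plus strand) had 243, 228, 217 and 231 CPM in controls 1 to 4, and 285, 224, 231 and 298 CPM in knockout libraries 1 to 4. Knockout replicates 1 and 4 were above every control, and knockout replicates 2 and 3 lay within the control range. The log2 fold change was 0.18 with an interval from 0.03 to 0.32, opposite in sign to *Klf2* (unadjusted P 0.0241, edgeR adjusted p 0.442, between 0.0799 and 1.00 in the alternatives). Without knockout replicates 1 and 4 it was −0.01, and unadjusted P was under 0.05 in 19 of the 32 alternatives. Leaving out only knockout replicate 1, knockout replicate 4 or the library labelled *Foxp3 YFP-Cre* replicate 3 gave *Klf6* unadjusted P values of 0.108, 0.148 and 0.0652.

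*Klf7* (ENSMUSG00000025959, chr1:64068606-64161441, minus strand) had 48.3, 47.0, 45.2 and 45.1 CPM in controls, and 48.9, 41.4, 43.5 and 49.1 CPM in knockout libraries. Its knockout libraries spread to both sides of the controls, with replicates 1 and 4 at the top as for *Klf6*, and the means differed by less than the spread between libraries. The log2 fold change was −0.02 with an interval from −0.16 to 0.12, and −0.13 without knockout replicates 1 and 4 (unadjusted P of 0.107). *Klf4*, a further activator of this group, had 1.42 to 2.76 CPM in controls and 2.07 to 3.31 CPM in knockout cells, from 20 to 44 counts. At this depth its log2 fold change of 0.46 had an interval from −0.10 to 1.03, and unadjusted P went from 0.103 to 0.0436 without control replicate 2. *Klf5* had 3 to 12 counts per library and was not tested.

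*Klf3*, *Klf8* and *Klf12* encode repressors that bind CtBP. *Klf3* (ENSMUSG00000029178, chr5:64960731-64990244, plus strand) had 47.0, 47.4, 44.4 and 42.8 CPM in controls 1 to 4, and 38.0, 45.9, 41.0 and 33.9 CPM in knockout libraries 1 to 4. Knockout replicates 1, 3 and 4 were below every control, and knockout replicate 2 lay among the controls. The log2 fold change was −0.19 with an interval from −0.36 to −0.03, a change of −12.6% (unadjusted P 0.0245, edgeR adjusted p 0.445, between 0.0508 and 1.00 in the alternatives). It was −0.06 without knockout replicates 1 and 4 (unadjusted P 0.447). Unadjusted P was also above 0.05 for *Klf3* when knockout replicate 1 (0.0630), knockout replicate 4 (0.117), control replicate 1 (0.0619) or control replicate 2 (0.0630) was left out, and under 0.05 in 18 of the 32 alternatives. *Klf3* is less certain than *Klf2* for a further reason: 643 of its exon bases in GENCODE lie opposite exons of the long noncoding RNA *Gm20033*, and whether counting used the strand is not given in the sources used here. The same holds for 333 bases of *Klf9*, 62 of *Klf10*, 35 of *Klf12* and 7 of *Klf7*, and for none of *Klf2*, *Klf6*, *Klf11*, *Klf13* and *Klf16*.

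*Klf12* had 1.26 to 1.78 CPM in controls and 0.581 to 1.28 CPM in knockout cells, with 8 to 26 counts. Its log2 fold change of −0.56 had an interval from −1.27 to 0.16, wide enough to hold both no change and that of *Klf2*. It was −0.17 without knockout replicates 1 and 4 (unadjusted P 0.666), the libraries lowest in *Klf12*, and with voom the Klf12 log2 fold change was −0.72 (unadjusted P 0.0445). *Klf8* had 2.26 to 2.98 CPM in controls and 2.03 to 3.78 CPM in knockout cells, and its log2 fold change was 0.09 with an interval from −0.44 to 0.63. The unadjusted P was 0.122 for *Klf12* and 0.724 for *Klf8*.

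The members encoding repressors that bind SIN3A, *Klf10*, *Klf11*, *Klf13* and *Klf16*, had nearly the same level in both genotypes. *Klf10* had 28.6 to 33.0 CPM in controls and 27.2 to 32.6 CPM in knockout cells, a log2 fold change of −0.01 with an interval from −0.17 to 0.15. *Klf11*, the member with the fewest counts (101 to 170), had 7.15 to 11.6 CPM in controls and 8.64 to 10.3 CPM in knockout cells, a log2 fold change of 0.00 with an interval from −0.30 to 0.30. These genes that respond early to TGF-β thus differed by less than the spread between libraries at 36 hours, with a narrower bound for *Klf10* than for *Klf11*. *Klf10* was at 0.06 and *Klf11* at −0.04 without knockout replicates 1 and 4.

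*Klf13*, known as an activator of *Ccl5* in late activated T cells, was the most even member. It had 195, 204, 193 and 189 CPM in controls 1 to 4, and 196, 197, 197 and 199 CPM in knockout libraries 1 to 4. For *Klf13* the log2 fold change was 0.02 with an interval from −0.07 to 0.10, the narrowest among the members, so that a change of the size seen in *Klf3* lies outside it. *Klf16* had 46.5 to 54.2 CPM in controls and 47.8 to 57.7 CPM in knockout cells, a log2 fold change of 0.05 with an interval from −0.09 to 0.19. *Klf13* was at 0.01 and *Klf16* at 0.05 without knockout replicates 1 and 4. *Klf9*, which belongs to the same group, had 16.1 to 19.5 CPM in controls and 16.8 to 19.4 CPM in knockout cells, a log2 fold change of 0.02 with an interval from −0.18 to 0.22.

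**Figure D2:**
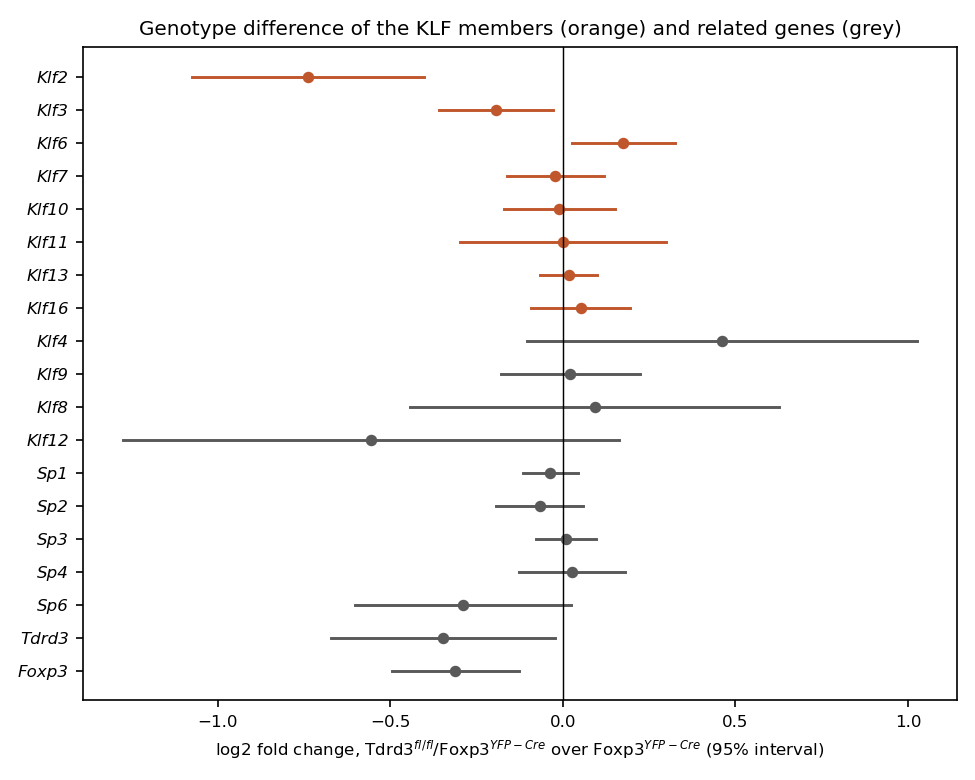
The x axis is the log2 fold change of *Tdrd3 fl/fl/Foxp3 YFP-Cre* over control iT_regs_ from edgeR's fit (n = 4 libraries per genotype), points are estimates and lines 95% intervals; the 8 members are orange, and other KLF genes, SP factors, *Tdrd3* and *Foxp3* are grey. The interval of *Klf2* (−1.07 to −0.40) lies below those of the other 7 members, of which the lowest bound is −0.36 (*Klf3*).

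Counted over the family, no member had an adjusted p under 0.05. The count was 0 of 8 in edgeR's test and in DESeq2, and 1 of 8, *Klf2*, with limma's voom and quality weights, while edgeR called 0.203% of tested genes lower and 0.0619% higher. At an unadjusted P under 0.05, 2 of the 8 members were lower, *Klf2* and *Klf3*, where 4.91% of all tested genes were, and 1 was higher, *Klf6*, where 4.38% were. DESeq2 gave *Klf2* and *Klf3* at that threshold but not *Klf6* (unadjusted P 0.108). Without knockout replicate 1, without knockout replicate 4, or without both, edgeR left 1 member there, *Klf2*. Every knockout library lay below every control in 1 of 8 members, *Klf2*, and above in none, against 2.63% and 2.25% of tested genes. The exact permutation test gave p = 0.0286 for *Klf2*, 0.0857 for *Klf3* and 0.286 for *Klf6*, and at least 0.514 for the other members. The median log2 fold change was −0.00 over the 8 members, 0.00 over the 7 without *Klf2*, and 0.00 over all tested genes.

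A threshold passed by *Klf2* and missed by a relative does not show that they differ, so *Klf2* was compared with each relative inside each library, as log2(CPM + 0.5) of *Klf2* minus that of the relative. *Klf2* minus *Klf13* was −1.91, −1.78, −1.60 and −1.78 in controls 1 to 4, and −3.11, −2.11, −2.14 and −3.01 in knockout libraries 1 to 4. Every knockout library was lower than every control, knockout replicates 2 and 3 included. The same held for *Klf2* minus *Klf3*, *Klf6*, *Klf10* and *Klf16* (two-sided exact permutation test, unadjusted p = 0.0286 for each of these 5 of 7 pairs, the smallest it allows). For *Klf7* and *Klf11* the genotypes overlapped (exact permutation test, p = 0.0571 for each). All 7 pairs use the same *Klf2* values, which by themselves did not overlap between genotypes, so the pairs are not independent results. The study had also picked *Klf2* from its RNA sequencing of these cells.

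The difference between genotypes in this comparison was smallest against *Klf3*, at −0.60, and largest against *Klf6*, at −0.97. Against *Klf3*, *Klf2* was higher in each control, by 0.12, 0.31, 0.50 and 0.35 on the log2 scale. In the knockout libraries 1 to 4 the values were −0.76, −0.02, 0.11 and −0.47, so that knockout replicate 3 came close to control replicate 1. Relative to the mean of the other 7 members, *Klf2* stood at 0.05 ± 0.17 in controls (SD, n = 4) and −0.75 ± 0.56 in knockout cells (SD, n = 4), a difference of −0.80. That difference was −0.32 without knockout replicates 1 and 4 and −0.74 without the library labelled *Foxp3 YFP-Cre* replicate 3.

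Divided by exon length, for a rough order of levels between genes, *Klf6* was the most abundant member in controls, at 51.4 ± 2.40 CPM per kb (SD, n = 4). *Klf2* at 26.6 ± 2.40 and *Klf13* at 25.9 ± 0.867 CPM per kb followed and did not differ beyond their spread, since control libraries ranged from 24.0 to 29.5 for *Klf2* and from 25.0 to 27.1 for *Klf13*. Below them came *Klf16* at 18.5, *Klf10* at 7.21, *Klf7* at 5.48, *Klf3* at 3.03 and *Klf11* at 2.19 CPM per kb, with no overlap between neighbours among the control libraries. In knockout cells *Klf2* moved from rank 2 to rank 4, at 15.9 ± 5.83 CPM per kb (SD, n = 4), where its libraries, at 10.4 to 21.2, overlapped those of *Klf16*, which began at 17.4 CPM per kb. *Klf2* made up 19.0% of the summed level per kb of the 8 members in controls and 11.7% in knockout cells, *Klf6* 36.6% and 42.5%. These levels rest on the joined exons of all GENCODE transcripts of a gene, which for *Klf3* span 14998 bases and for *Klf2* 2136. Where the expressed transcripts are shorter than the joined exons, the level per kb is too low. The order, and the low rank of *Klf3* in it, is uncertain for that reason.

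The spread within a genotype differed between members. The coefficient of variation was 9.01% in controls and 36.6% in knockout cells for *Klf2*, 4.80% and 12.7% for *Klf3*, 4.67% and 14.4% for *Klf6*, and 3.33% and 8.52% for *Klf7*. It was 6.81% and 7.39% for *Klf10* and 6.77% and 7.84% for *Klf16*. In *Klf11* and *Klf13* controls varied more, at 19.3% against 8.12% and 3.35% against 0.733%. After the mean of each genotype was subtracted, Pearson's r with *Klf2* over the 8 libraries was −0.97 for *Klf6*, −0.93 for *Klf7*, 0.73 for *Klf3*, 0.61 for *Klf10*, −0.18 for *Klf16*, −0.16 for *Klf11* and −0.00 for *Klf13*. With the means left in, r was −0.93 for *Klf6*, −0.48 for *Klf7*, 0.85 for *Klf3*, 0.44 for *Klf10*, −0.32 for *Klf16*, −0.14 for *Klf11* and −0.21 for *Klf13*. Among the other tested Klf genes, r with means subtracted was 0.79 for *Klf12*, −0.77 for *Klf8*, −0.11 for *Klf4* and −0.07 for *Klf9*. With the means left in it was 0.88 for *Klf12*, above that of *Klf3*, −0.58 for *Klf8*, −0.53 for *Klf4* and −0.14 for *Klf9*. *Klf4*, *Klf8* and *Klf12* had low counts. In *Klf2*, *Klf3*, *Klf6*, *Klf7* and *Klf10* the centred values of knockout replicates 1 and 4 lay on one side of the knockout mean and those of knockout replicates 2 and 3 on the other. These are descriptions over 8 libraries.

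**Figure D3:**
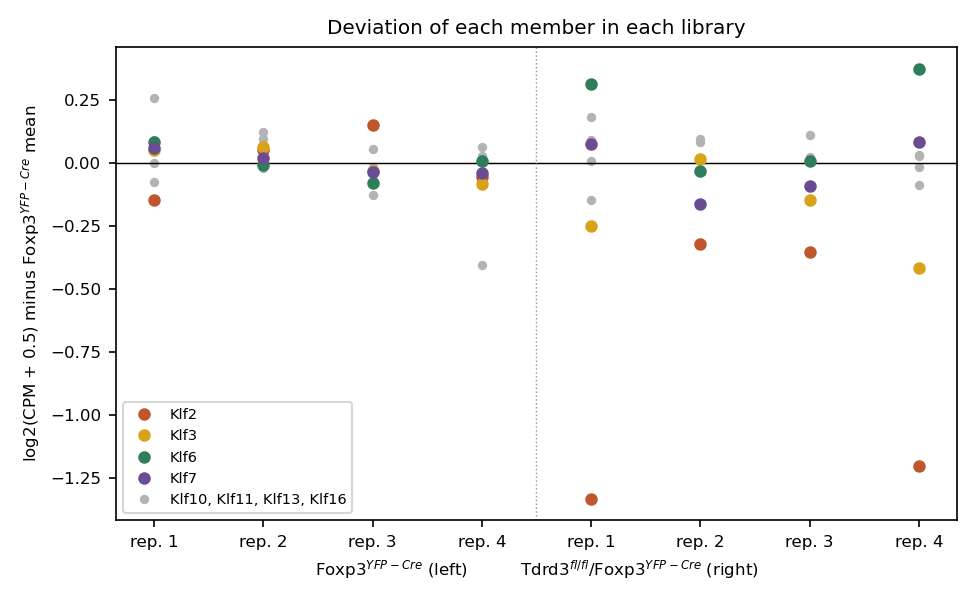
The y axis is log2(CPM + 0.5) of each member minus its mean over the 4 control libraries, and the x axis gives the 4 control and 4 *Tdrd3 fl/fl/Foxp3 YFP-Cre* libraries; each point is 1 member in 1 library. *Klf2* is at −1.33, −0.32, −0.35 and −1.20 in knockout replicates 1 to 4, *Klf6* at 0.31, −0.03, 0.01 and 0.37, and *Klf3* at −0.25, 0.02, −0.15 and −0.42.

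Among 8776 tested genes with a mean of at least 10 CPM, the 5 whose log2 levels followed *Klf2* most closely over the 8 libraries included *St8sia1* (r = 0.991), *Myo1e* (0.984), *Phlda1* (0.979) and *6430571L13Rik* (0.973). The lowest r belonged to *Cldnd1* (−0.977), *Togaram1* (−0.965), *Il9* (−0.965), *D630045J12Rik* (−0.961) and *Zbtb7a* (−0.959). With genotype means subtracted, the 5 highest included *Zfp780b* (0.988), *Gpcpd1* (0.980), *St8sia1* (0.980) and *6430571L13Rik* (0.978), and the lowest were *Il9* (−0.980), *Cd200* (−0.971), *Klf6* (−0.970), *Tagap* (−0.969) and *Ubald2* (−0.968). *Klf6*, a fellow member, thus had the third lowest r of 8776 genes by this measure. *Myo1e*, a class I myosin, had 56.3, 53.1, 60.5 and 57.5 CPM in controls and 27.0, 45.7, 45.2 and 30.6 CPM in knockout libraries, the same ordering of knockout libraries into low and high as *Klf2*. Its log2 fold change was −0.61 with an edgeR adjusted p of 0.0384, and −0.32 without knockout replicates 1 and 4 (adjusted p 0.609). With control replicate 1, 2 or 3 or knockout replicate 1 or 4 left out, the edgeR adjusted p of *Myo1e* was 0.135, 0.0738, 0.103, 0.129 and 0.173. *Il9*, a cytokine gene, had 20.8 to 25.1 CPM in controls, 51.9 and 53.2 CPM in knockout replicates 1 and 4, and 22.5 and 23.4 CPM in knockout replicates 2 and 3. Without knockout replicates 1 and 4 the sign of the log2 fold change turned for *Cd200* (0.27 to −0.05), *Ubald2* (0.27 to −0.04), *Gpcpd1* (−0.07 to 0.02), *Zfp780b* (−0.08 to 0.11) and *Klf6*.

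Genes that KLF2 is known to activate or repress in T cells were compared next. Of 10 such genes 9 were tested, 4 were lower at an unadjusted P under 0.05 and 0 higher, where 4.91% and 4.38% of all tested genes were, and 0 had an edgeR adjusted p under 0.05. The median log2 fold change of the 9 was −0.05, beside 0.00 over all tested genes. *S1pr1*, the receptor that lets lymphocytes leave lymphoid tissue, had 57.7, 58.6, 57.5 and 51.4 CPM in controls 1 to 4 and 46.0, 47.1, 48.3 and 45.5 CPM in knockout libraries 1 to 4. All knockout libraries were below all controls and, unlike in *Klf2*, close to each other. The log2 fold change of *S1pr1* was −0.27 (unadjusted P 2.48e-04, edgeR adjusted p 0.0671, between 0.0110 and 1.00 in the alternatives), and −0.24 without knockout replicates 1 and 4. Its adjusted p by edgeR was 0.0145 without control replicate 4 and 0.0466 without knockout replicate 2.

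*Itgb7*, the β chain of a gut-homing integrin, had 170, 167, 146 and 124 CPM in controls and 108, 133, 124 and 109 CPM in knockout libraries. As in *Klf2*, knockout replicates 1 and 4 were lowest, but knockout replicate 2 lay above control replicate 4. *Itgb7* had a log2 fold change of −0.35 (edgeR adjusted p of 0.0760), and *S1pr4*, a further receptor for the same lipid as S1PR1, one of −0.15 (edgeR adjusted p of 0.496). Without knockout replicates 1 and 4 these were −0.24 (unadjusted P 0.0223) and −0.11 (unadjusted P 0.216). Leaving out control replicate 4 or knockout replicate 2 brought the edgeR adjusted p of *Itgb7* to 0.00297 and 0.0107. For *S1pr4*, unadjusted P rose to 0.134, 0.0859, 0.106 and 0.0616 without control replicate 3, control replicate 4, knockout replicate 1 and knockout replicate 4. The other 5 target genes did not pass an unadjusted P of 0.05, with log2 fold changes of 0.27 for *Cxcr3*, 0.21 for *Il7r*, 0.07 for *Cdkn1a*, −0.00 for *Cdkn1b* and −0.05 for *Ccr7*.

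Genes known to act on *Klf2* or on KLF proteins were then counted. Of all tested genes, 4.91% were lower and 4.38% higher at an unadjusted P under 0.05. A count of 0 in lists this short lies near those shares. Of the factors upstream of *Klf2* transcription (FOXO and MEF2 factors and the MEKK2 and MEKK3 to ERK5 kinases), 9 of 10 were tested, 0 were lower and 0 higher at an unadjusted P under 0.05, and log2 fold changes lay between −0.09 and 0.07. *Foxo1* in this list had a log2 fold change of 0.02 with an interval from −0.07 to 0.11. Of 5 ubiquitin ligases that act on KLF proteins, 0 differed at an unadjusted P under 0.05 in either direction.

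Genes for partners of KLF proteins were counted in the same way. At an unadjusted P under 0.05, 4.91% of all tested genes were lower and 4.38% higher. The counts of these short lists were not tested against those shares. Of 4 coactivator genes 0 differed at an unadjusted P under 0.05, and their median log2 fold change was −0.04. Of 8 corepressor genes 1 was higher, *Sap30* of the SIN3 complex, with a log2 fold change of 0.19 (unadjusted P 0.0434, edgeR adjusted p 0.513). Unadjusted P of *Sap30* was between 0.0546 and 0.161 when any 1 library other than control replicate 4 or knockout replicate 2 was left out, and 0.245 without knockout replicates 1 and 4. *Ctbp1*, the partner of KLF3, had a log2 fold change of −0.01 with an interval from −0.09 to 0.06. *Ctbp2*, which encodes the other CtBP protein, had 4 to 22 counts and a log2 fold change of 0.59 with an interval from −0.44 to 1.62. Of 7 tested genes that TGF-β induces directly, listed to set beside *Klf10* and *Klf11*, 1 was higher: *Pmepa1*, a feedback inhibitor of TGF-β signalling, at 0.18 (unadjusted P 0.0438, edgeR adjusted p 0.514), which was −0.01 without knockout replicates 1 and 4. Unadjusted P of *Pmepa1* was 0.110, 0.0840, 0.109, 0.229 and 0.141 when control replicate 1, 2 or 3 or knockout replicate 1 or 4 was left out.

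The SP factors, the nearest relatives of the KLFs outside the family, differed in 0 of 5 tested genes at an unadjusted P under 0.05. At that threshold 4.91% of all tested genes were lower and 4.38% higher, so 0 of 5 lies near those shares. *Sp1* had a log2 fold change of −0.04 with an interval from −0.12 to 0.04, and *Sp3*, *Sp2* and *Sp4* lay between −0.07 and 0.03. *Sp6* was the lowest of them, at −0.29 with an interval from −0.60 to 0.02 and an unadjusted P of 0.0691, which was 0.0366, 0.0213 and 0.0183 without control replicate 3, control replicate 4 and knockout replicate 2. Like *Klf3*, *Sp6* (3333 bases), *Sp2*, *Sp3* and *Sp4* share exon bases with noncoding RNAs of the opposite strand and are uncertain for that reason.

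Some markers of T_regs_ and 1 of T cells were lower together with *Klf2*. Of 5 T_reg_ markers, 3 were lower at an unadjusted P under 0.05, *Foxp3*, *Il2ra* and *Ikzf4*, where 4.91% of all tested genes were, with log2 fold changes of −0.31, −0.13 and −0.12 and edgeR adjusted p of 0.152, 0.152 and 0.418. The adjusted p of *Foxp3* was 0.0337 without control replicate 4 and 0.0104 without knockout replicate 2, and the unadjusted P of *Ikzf4* was 0.117 without control replicate 1 and 0.0559 without knockout replicate 1. None of the 3 passed without knockout replicates 1 and 4, where *Foxp3* was at −0.15 (unadjusted P 0.111), *Il2ra* at −0.09 (0.0682) and *Ikzf4* at −0.09 (0.151). The remaining 2, *Ctla4* at 0.06 (unadjusted P 0.152) and *Tnfrsf18* at −0.06 (unadjusted P 0.258), did not pass with all libraries. The summed level of the 5 markers, led by *Il2ra*, was 3579, 3473, 3611 and 3469 CPM in controls 1 to 4 and 3264, 3387, 3334 and 3254 CPM in knockout libraries 1 to 4. All knockout sums were below all control sums, but without *Il2ra* the sums overlapped, at 1198 to 1325 CPM in controls and 1218 to 1252 CPM in knockout libraries. The 8 T cell markers tested of 9 (*Trac* was not analysed here) summed to 3302, 3266, 3381 and 3166 CPM in controls and to 2988, 3158, 3105 and 2997 CPM in knockout libraries. These did not overlap, but without *Thy1*, their most abundant gene, the sums did, at 2247 to 2359 CPM in controls and 2202 to 2282 CPM in knockout libraries. *Thy1* was the 1 of the 8 that was lower (log2 fold change of −0.26, edgeR adjusted p of 0.0439, between 1.99e-04 and 1.00 in the alternatives). That adjusted p was above 0.05, from 0.0585 to 0.267, when any 1 library other than control replicate 4 or knockout replicate 2 was left out. The other 7 did not pass an unadjusted P of 0.05, and the median log2 fold change of the 8 was −0.03. Both sums with all genes, like *Klf2*, were lowest in knockout replicates 1 and 4. The part that the shares of T_regs_ or other cells have in the *Klf2* difference was not tested.

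Of 6 naïve T cell genes 1 was lower at an unadjusted P under 0.05, where 4.91% of all tested genes were. Their sum, led by *Tcf7*, overlapped between genotypes, ranging from 1471 to 1643 CPM. Of 5 activation markers, *Il2ra* and *Tnfrsf9* were lower at an unadjusted P under 0.05 (*Tnfrsf9* at 0.0617 without control replicate 2, at 0.106 without knockout replicates 1 and 4, and at an adjusted p of 0.00297 without control replicate 4), and their sum ranged from 4062 to 4697 CPM. CD8 markers, led by *Cd8b1*, summed to 9.93, 8.08, 21.8 and 7.72 CPM in controls 1 to 4 and to 6.68, 7.15, 6.76 and 8.35 CPM in knockout libraries 1 to 4. Both were lower in knockout cells at an unadjusted P under 0.05, *Cd8a* with a log2 fold change of −2.15 that was −0.43 without the library labelled *Foxp3 YFP-Cre* replicate 3 (unadjusted P 0.329), and *Cd8b1* with one of −0.36 whose unadjusted P was between 0.0528 and 0.198 without control replicate 1 or 3 or knockout replicate 1, 2 or 3, and 0.0521 without knockout replicates 1 and 4. The excess in the library labelled *Foxp3 YFP-Cre* replicate 3 came with the highest *Klf2*. Without that library the *Klf2* log2 fold change was −0.69, and −0.74 with all libraries. Whether the excess has a part in the *Klf2* difference was not tested. Defining markers of other cells were low. *Lyz2*, the 1 myeloid marker of 6 in the table, was at 0 in 6 libraries and at 0.653 and 1.22 CPM in knockout replicates 1 and 4. The B cell receptor genes *Cd79a* and *Cd79b* had at most 0.921 and 2.03 CPM. The natural killer markers *Klrk1* and *Eomes* summed to at most 4.48 CPM, and the 1 erythroid marker, *Hbb-bt*, reached 0.911 CPM. *Cd74*, which led the B cell markers and is also made by other cells, gave sums of 56.0 to 65.8 CPM, and *Pecam1*, the 1 endothelial marker in the table, which T cells also express, 19.6 to 31.4 CPM, both with overlapping genotypes.

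The bases upstream of the members that differed at an unadjusted P under 0.05 are shown, those of *Klf2* and *Klf3*, which were lower, and *Klf6*, which was higher. For *Klf3* and *Klf6* that difference was not past the adjusted threshold and was −0.06 and −0.01 without knockout replicates 1 and 4. Each window holds 250 bases of the plus strand of GRCm39 and ends just upstream of the GENCODE transcript start: chr8:73072476-73072725 for *Klf2*, chr5:64960457-64960706 for *Klf3* and chr13:5911231-5911480 for *Klf6*. The table's own start of *Klf2* lies 151 bases downstream of the GENCODE start. Capitals mark the KLF motif CACCC, which reads GGGTG on the opposite strand, and the GC box GGGCGG, which reads CCGCCC there, both searched on both strands. In *Klf3* the last matches of these motifs overlap.
*Klf2*: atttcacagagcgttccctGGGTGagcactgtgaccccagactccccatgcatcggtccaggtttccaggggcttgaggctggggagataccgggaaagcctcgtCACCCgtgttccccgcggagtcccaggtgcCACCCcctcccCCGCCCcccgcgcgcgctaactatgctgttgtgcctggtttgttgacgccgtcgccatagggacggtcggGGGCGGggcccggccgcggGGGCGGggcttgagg
*Klf3*: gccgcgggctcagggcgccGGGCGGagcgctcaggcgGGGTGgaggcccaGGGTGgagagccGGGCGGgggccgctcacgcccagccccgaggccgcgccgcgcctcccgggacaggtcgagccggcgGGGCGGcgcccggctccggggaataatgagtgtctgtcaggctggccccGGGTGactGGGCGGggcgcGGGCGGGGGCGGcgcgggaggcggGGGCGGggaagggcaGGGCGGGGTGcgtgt
*Klf6*: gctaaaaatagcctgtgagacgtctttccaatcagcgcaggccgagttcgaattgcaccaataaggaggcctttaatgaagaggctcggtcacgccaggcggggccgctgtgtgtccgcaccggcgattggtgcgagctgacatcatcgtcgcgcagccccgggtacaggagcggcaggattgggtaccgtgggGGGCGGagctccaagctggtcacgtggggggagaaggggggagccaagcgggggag

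All 8 members had at least 1 GC box in this window, as did 50.7% of 11316 promoters of tested genes. CACCC occurred 3 times upstream of *Klf2*, 4 times upstream of *Klf3* and 1 time upstream of *Klf13*, and in none of the other 5 members, among them *Klf6*; 55.5% of the promoters held it. The FOXO motif GTAAACA, searched on both strands, was found in none of these 3 windows and 1 time upstream of *Klf7*, against 2.28% of promoters. The GC content of the windows was 68.8% for *Klf2*, 82.4% for *Klf3* and 63.2% for *Klf6*, with a median of 56.8% over the promoters of tested genes. These are matches of letters only, and a motif absent here may lie elsewhere. The paper found TDRD3 bound at adjoining regions of the *Klf2* promoter. By its primer sequences, the more upstream region lies before the *Klf2* window except at its end, so the search does not cover that region.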

How the data were processed

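According to the Methods, the authors mapped reads to GRCm39 by STAR 2.7.8a and quantified genes in Partek Flow by expectation maximization, which shares a read among the genes it matches. The values they deposited are estimated counts, filtered and not normalized, and were rounded here; 42.8% were not whole (tolerance 0.0005). Annotation version and strandedness are not given in the sources used here. The lowest maximum count of a listed gene is 10, and genes removed before were not analysed here.

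Genes were kept by filterByExpr (minimum count 10; 11317 of 11911), scaled by TMM (factors 0.993 to 1.00) and compared between genotypes, with no covariate, in edgeR 4.0.16 under R 4.3.3 (glmQLFit, glmQLFTest, two-sided, Benjamini-Hochberg), a procedure first tested on simulated data. Intervals use the standard error implied by F. Permutation tests used log2(CPM + 0.5) and all 70 arrangements. Libraries of a genotype were not duplicates of each other (chi-square per degree of freedom 2.59 to 6.31). The members and lists were chosen with earlier results of these data known. Named genes are the members, other genes named Klf or Sp, *Tdrd3*, *Foxp3*, list genes with an unadjusted P under 0.05 (up to 4 per list), and the 5 genes most and the 5 least correlated with *Klf2*. *Foxo1*, *Ctbp1*, *Ctbp2*, *Ctla4*, *Tnfrsf18*, the remaining *Klf2* targets and single low markers were named after their values were seen. Some genes that these rules name are not reported here; counts and medians of lists include them. Exon lengths, overlaps and transcript starts come from GENCODE mouse release 39, which holds 11910 of the gene identifiers.

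The alternatives were: no filter; a filter of 10 counts for all libraries; size factors from DESeq2 in place of TMM; totals alone; DESeq2 1.42.0; voom of limma 3.58.1, weighted by library quality; a block for replicate numbers; each library left out; each of the 16 pairs of a control and a knockout library left out; and, added after seeing the data, knockout replicates 1 and 4 left out.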

Additional observations from a re-analysis of the deposited data

Results flagged for a closer look

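In 5 of 84 groups of 4 libraries tested, 1 library lay far from the other 3 by Dixon's criterion, and chance flags about 1 in 20 groups. None of them was in a KLF member. Among controls, the library labelled *Foxp3 YFP-Cre* replicate 3 had 11.3 CPM of *Cd8a* where the others had 0.873 to 1.37, and 21.8 CPM of the summed CD8 markers where the others had 7.72 to 9.93. Control replicate 4 had 51.4 CPM of the *Klf2* target *S1pr1* where the others had 57.5 to 58.6, and 882 CPM of *Thy1* where the others had 1019 to 1035. Among knockout libraries, replicate 3 had 233 CPM of *Ikzf4* where the others had 214 to 217. Causes were not tested.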

How the results depend on the processing

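*Klf2*, *Klf3*, *Klf4*, *Klf12*, *Sp1*, *Sp2*, *Sp6*, *Tdrd3*, *Foxp3* and the 4 lower *Klf2* targets kept their direction in every alternative that gave them a value. Adjusted p of *Klf2* fell under 0.05 with voom (log2 fold change −0.84, 1 member called) and with the replicate block (−0.79, 1 member called). The labels do not say whether replicate numbers pair the libraries. Over the tested genes, deviations of same-numbered libraries correlated at −0.0458, 0.00404, −0.0417 and 0.0691, and not every library correlated best with its own number. In *Klf2* itself the deviations had the same sign in same-numbered libraries. They were −0.15, 0.05, 0.15 and −0.06 in controls 1 to 4, and −0.53, 0.48, 0.45 and −0.40 in knockout libraries 1 to 4. Whether the numbers mark shared mice or batches was not tested. The block called 87 genes in all, voom 95, DESeq2 79 and the main test 30. With 1 library left out the number called ranged from 6, without knockout replicate 1, to 162, without knockout replicate 2. The shares of tested genes called at the adjusted threshold thus depend on single libraries.

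Over the 24 settings that leave out 1 library or a pair, the *Klf2* log2 fold change ranged from −0.96 to −0.53, members with adjusted p under 0.05 from 0 to 1, members with unadjusted P under 0.05 from 1 to 3, and *Klf2* relative to the other members from −1.04 to −0.55. Log2 fold changes on both sides of 0 were found for *Klf7* (−0.0722 to 0.0431), *Klf10* (−0.0767 to 0.0769), *Klf11* (−0.15 to 0.15), *Klf13* (−0.00376 to 0.0422), *Klf16* (−0.0353 to 0.127), *Klf9* (−0.0590 to 0.0994), *Klf8* (−0.16 to 0.29), *Sp3* (−0.00915 to 0.0440) and *Sp4* (−0.0470 to 0.0986), none of them past unadjusted P in the main test.

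Without knockout replicates 1 and 4, chosen after seeing the data, 1 member had unadjusted P under 0.05, *Klf2* relative to the others was −0.32, and signs turned for *Klf6* (−0.0146), *Klf10* (0.0591), *Klf11* (−0.0407), *Klf8* (−0.264), *Sp3* (−0.000635), *Pmepa1* (−0.00980), *Cd200* (−0.0470), *Ubald2* (−0.0388), *Gpcpd1* (0.0195) and *Zfp780b* (0.114); 3 genes of 11505 were called. *Klf11* also turned with DESeq2 size factors (−0.000203), DESeq2 (−0.000757) and voom (−0.0356), and with voom so did the Sp3 log2 fold change (−0.00322) and the Sp4 log2 fold change (−0.000598). The cause was not tested. Filters, tests and the block do not enter the within-library difference of *Klf2* from the other members, so those give no value for it.

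With 4 libraries per genotype, and knockout libraries far apart in *Klf2*, its size is less certain than its direction. Low counts leave wide intervals for *Klf4*, *Klf8* and *Klf12*, and *Klf5* was not tested for that reason. Exon lengths rest on GENCODE, and the annotation used for counting is not given in the sources used here.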
